A study of Mus musculus with 5 samples.

Results

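The 7 genes described here encode the E proteins and their Id inhibitors: Tcf3, Tcf12 and Tcf4 on one side, and Id1, Id2, Id3 and Id4 on the other. They were named as a family and not by a cut on their acetylation, although earlier results of these data were known. They make up 7 of 21887 protein-coding genes in the RefSeq table of mouse assembly GRCm38.p6. H3K27ac, a histone acetylation found at active promoters and enhancers, was profiled by ChIPmentation, in which the Tn5 transposase tags immunoprecipitated chromatin with sequencing adapters. The cells were CD45.2+ Lineage- Sca1+ Kit+ mouse bone marrow cells, labelled HSC/MPP (haematopoietic stem cells and multipotent progenitors), and all carried the genotype Mll3/4 deleted. Kmt2c (Mll3) and Kmt2d (Mll4) encode methyltransferases that act mostly at enhancers. The groups were 4 H3K27ac libraries and 1 input library of that same genotype, deposited together as a single list of 22948 peaks that is named as an overlap set. How the deletion was made, and whether animals were pooled, is not given in the sources used here. With no other genotype and no column for a single library, the values below carry no replicate error and no change caused by the deletion can be read from them.

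E proteins are basic helix-loop-helix transcription factors that bind E box DNA, CANNTG, as pairs with each other or with tissue-restricted partners such as Tal1. Id proteins have the helix-loop-helix but no basic region, so a pair of an E protein and an Id protein does not bind DNA. In blood, E proteins drive the early steps of the B- and T-cell programmes, and Id proteins hold them in check, for instance in stem cells and innate lymphoid cells. Tcf3 encodes E12 and E47, Tcf12 encodes HEB and Tcf4 encodes E2-2, a factor needed for plasmacytoid dendritic cells.

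The promoters come first, because the overlap of peaks with gene starts differed among the genes and, at Tcf12, among its starts. RefSeq promoter windows (GRCm38.p6, 250 bases before to 50 after a start, written 5′ to 3′ along the gene) were matched for 5 of the 7 genes, 7 windows in all; Tcf4 and Id1 were not matched. The windows below are the start of Tcf3 (chr10:80433586-80433885, minus strand) and the second start of Tcf12 (chr9:72111152-72111451, minus strand), whose 300 bases all lay inside a peak. They are followed by Id3 (chr4:136143572-136143871, plus strand), of which 10 bases lay in a peak, and by Id2 (chr12:25096043-25096342, minus strand) and Id4 (chr13:48260866-48261165, plus strand), which had none. Capitals mark matches to the E box CANNTG, a pattern that reads the same on both strands.
Tcf3: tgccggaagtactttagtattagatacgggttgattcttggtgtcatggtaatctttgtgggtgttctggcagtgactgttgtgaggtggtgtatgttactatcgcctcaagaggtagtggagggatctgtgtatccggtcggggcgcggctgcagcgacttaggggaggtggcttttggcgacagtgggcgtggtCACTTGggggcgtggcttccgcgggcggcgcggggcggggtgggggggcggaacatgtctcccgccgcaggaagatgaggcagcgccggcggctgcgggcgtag
Tcf12: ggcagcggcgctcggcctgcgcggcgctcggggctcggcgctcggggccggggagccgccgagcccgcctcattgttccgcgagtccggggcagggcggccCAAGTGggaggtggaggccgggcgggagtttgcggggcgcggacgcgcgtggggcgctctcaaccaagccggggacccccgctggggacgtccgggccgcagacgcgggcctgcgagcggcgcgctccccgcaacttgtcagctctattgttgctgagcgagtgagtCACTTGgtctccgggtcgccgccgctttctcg
Id3: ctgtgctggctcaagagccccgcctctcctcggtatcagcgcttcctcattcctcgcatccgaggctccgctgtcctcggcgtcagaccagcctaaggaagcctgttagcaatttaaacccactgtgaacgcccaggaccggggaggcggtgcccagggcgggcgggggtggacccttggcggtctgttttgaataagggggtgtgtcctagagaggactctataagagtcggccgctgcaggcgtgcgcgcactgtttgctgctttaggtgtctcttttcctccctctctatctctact
Id2: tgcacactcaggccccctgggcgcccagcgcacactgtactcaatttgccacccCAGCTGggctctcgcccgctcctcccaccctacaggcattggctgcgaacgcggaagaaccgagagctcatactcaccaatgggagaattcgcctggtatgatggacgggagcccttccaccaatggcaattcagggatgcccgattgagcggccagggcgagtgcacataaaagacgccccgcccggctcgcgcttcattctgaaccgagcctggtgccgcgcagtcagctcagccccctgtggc
Id4: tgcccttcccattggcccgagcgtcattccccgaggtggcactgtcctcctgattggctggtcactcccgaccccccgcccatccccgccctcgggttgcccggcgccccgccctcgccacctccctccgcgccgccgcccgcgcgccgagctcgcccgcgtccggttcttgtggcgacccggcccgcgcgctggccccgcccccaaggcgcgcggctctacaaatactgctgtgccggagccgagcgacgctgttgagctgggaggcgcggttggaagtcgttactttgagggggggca

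The Tcf3 window held 1 E box, CACTTG, and the second Tcf12 window held 2, CAAGTG and CACTTG. Id2 held 1, CAGCTG, and the windows of Id3 and Id4 held none. Of all 32851 promoter windows, 72.3% held at least 1 CANNTG, so holding one is common. The narrower form CAGCTG, counted within CANNTG, also lay in the first Tcf12 window (chr9:72111770-72112069) and is present in 16.3% of all windows. CAGGTG (20.2% of all windows) was in none of the 7. GGCGCC, a motif bound by SMAD proteins of the BMP pathway, lay once in the Id2 window and once in the Id4 window, against 11.9% of all windows. On either strand no match was found for TGACGTCA (1.79% of all windows), TGACGT (7.51%), GTCTAGAC (0.213%), TGTGGT (16.8%), AGATAA (11.2%) or TATAAA (13.6%). CpG content did not order the genes as the peaks did: Id4, without a peak, had 39 CG dinucleotides, against 25 in Tcf3, 45 in the second Tcf12 window, 21 in Id2 and 19 in Id3. The first Tcf12 window, with 82 bases in peaks, had 41, and the third, without a peak, had 0. The median over all windows was 7. A match is a description of the letters and not a bound site.

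All 3 E protein genes had a peak at a gene end, that is, a peak that overlaps a stretch of 1 kb before or after an end. Of the 4 Id genes only Id3 had one. Over all protein-coding genes the share was 36.2%. The share differed with gene length, without rising steadily along it: among genes within 1.5 times the length of Tcf3, Tcf12 and Tcf4, 45.2%, 30.5% and 25.6% had such a peak, against 6.44%, 25.7%, 18.6% and 34.3% for genes as long as Id1, Id2, Id3 and Id4. In this bulk list a missing peak could mean fewer cells with the mark or less acetylation per cell, which cannot be told apart, and it does not show that the mark was absent.

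**Figure D1:**
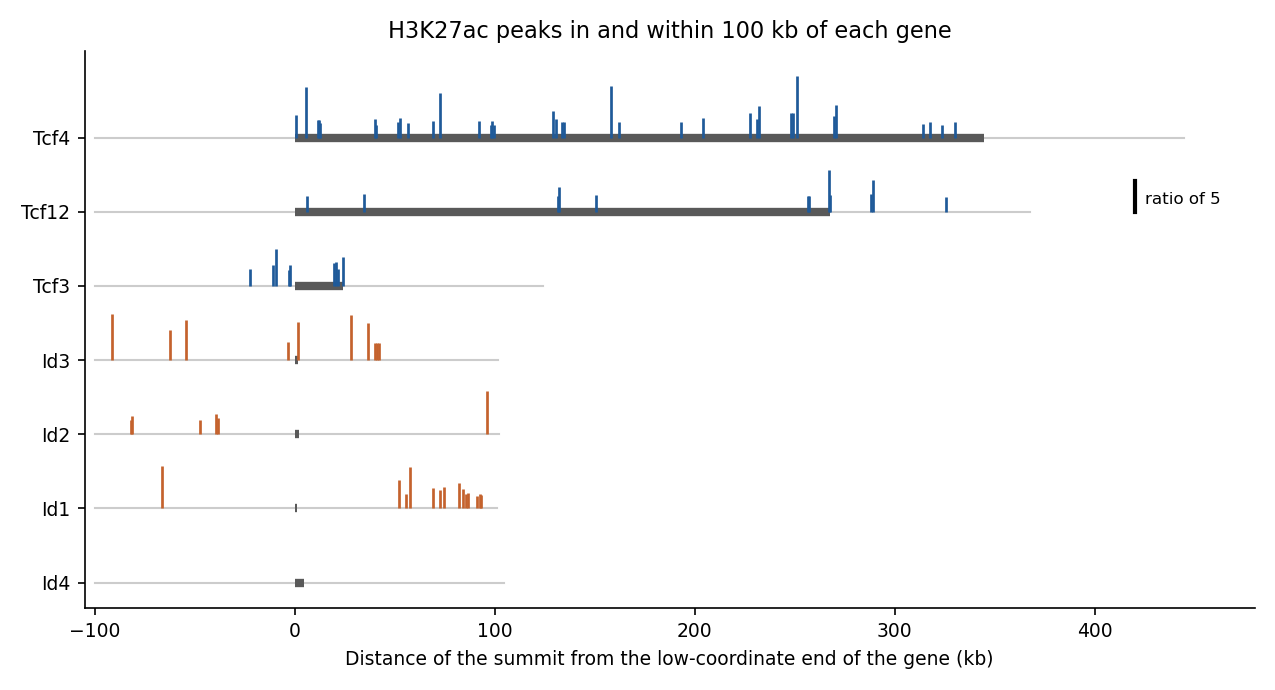
Map of the H3K27ac peaks at the 7 genes. The x axis gives the distance of each summit from the low-coordinate end of the gene in kb, thick bars are gene bodies, thin lines the 100 kb on either side, and the height of each vertical line is the enrichment ratio of that peak (scale bar, a ratio of 5; blue, E proteins; orange, Id genes). The 36 peaks of Tcf4 all lie in its body, whereas those around Id1 and Id2 lie far from the gene.

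Peak strength is given as column 7 of the list, read as the authors' enrichment ratio over background; it ran from 1.44 to 34.05 over all peaks, with a median of 3.27. At the gene ends, the highest ratio was 6.86 at Tcf12, followed by 6.24 at Id3, 4.68 at Tcf3 and 3.70 at Tcf4. Id3 thus lay below Tcf12 and above Tcf3 and Tcf4. The last place of Tcf4 depended on the 1 kb limit used for gene ends. A Tcf4 peak of 9381 bp began just past that limit and was not counted. Its ratio was 8.26, above the 6.86 of Tcf12. With 1 value per gene and no replicate, neighbours in the order at gene ends could not be tested against each other.

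Tcf4 had the most peaks, and the most sequence covered by peaks, of the 7 genes. Its 344.5 kb body (chr18:69343429-69687967) overlapped 36 peaks, which covered 54.5 kb or 15.8% of it. A peak somewhere in the body was present in 41.3% of all protein-coding genes, and in each of the 3 E protein genes. Tcf4 ranked 10 of 21887 by number of body peaks. Among 590 genes of similar length the median was 1 peak, and 5 genes had more than Tcf4.

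No peak lay in the 100 kb on either side of Tcf4, a stretch in which no other protein-coding gene lies. Inside the gene, 4 broad peaks accounted for 27.5 kb, or 50.5% of the covered length. The widest, of 9381 bp with a ratio of 8.26 (chr18:69344557-69353937), had its summit 5.64 kb from the low-coordinate end. The strongest had a ratio of 9.98 and a width of 4379 bp (chr18:69593255-69597633), with its summit 251.0 kb in from that end and at rank 514 of the 22948 peaks by ratio. The others were 7597 bp wide with a ratio of 8.45 (chr18:69497558-69505154) and 6145 bp wide with a ratio of 7.25 (chr18:69412889-69419033). The broad peaks thus stood at separate places along the gene and not in a single domain at its end.

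The other 32 peaks of Tcf4 had a median width of 646.5 bp and ratios up to 5.23. The peak counted at the gene end was one of these, 485 bp wide with a ratio of 3.70 (chr18:69343872-69344356). The 9381 bp peak began just past the 1 kb limit. The largest gap between neighbouring peaks in the body was 42.5 kb, between summits at 270.6 kb and 314.0 kb. The 4 peaks beyond that gap were all weak, with ratios of 2.25, 2.60, 2.12 and 2.47.

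Tcf12 showed a different layout although its body, 267.6 kb long (chr9:71844252-72111893), is nearly as long. It overlapped 8 peaks that covered 5.16 kb, or 1.93% of its length. Among 796 genes of similar length the median was 1 and 88 genes had more. Its strongest peak, with a ratio of 6.86 and a width of 1559 bp (chr9:72110267-72111825), lay at the end where transcription starts. A weaker peak of 235 bp, with a ratio of 2.72 (chr9:72112044-72112278), followed beyond the gene end. The outermost promoter window of Tcf12 fell mostly in the space between these peaks, with 82 of its 300 bases in peaks.

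Tcf12 also has a RefSeq start far inside the gene, with a window at chr9:71896047-71896346. No peak overlapped that window, and the nearest peak was 17242 bp away. This window held 0 CG dinucleotides and 1 E box, CATGTG. Elsewhere in the body the ratios were between 2.54 and 3.98, and no peak was found over 104.9 kb between the summits at 150.6 kb and 256.6 kb. Outside the gene, a peak of 746 bp with a ratio of 5.17 (chr9:72133227-72133972) lay 21.6 kb upstream of the start.

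Tcf3 is much shorter, at 24.4 kb (chr10:80409541-80433976). It overlapped 4 peaks covering 4.61 kb, or 18.8% of the gene. Among 4823 genes of similar length the median was 0 and 42 genes had more. All 4 lay at the end where transcription starts, with summits no more than 4.80 kb inside it. From the start inwards the ratios were 4.68 (2464 bp wide, chr10:80431667-80434130), 2.72, 3.85 and 3.65. The spaces between these peaks were at most 441 bp, so they formed 1 acetylated stretch when peaks within 1 kb were joined. Joined in the same way, the peaks in Tcf12 formed 6 stretches and those in Tcf4 formed 20.

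**Figure D2:**
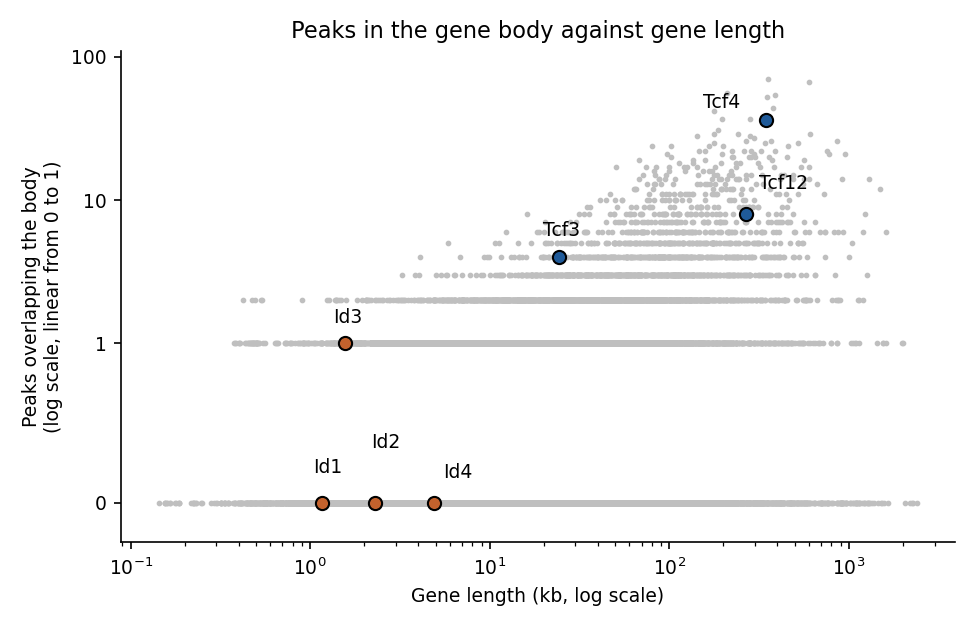
Number of peaks overlapping the gene body (y axis, log scale, linear from 0 to 1) against gene length (x axis, kb, log scale). Grey points are all 21887 protein-coding genes, blue points the E proteins and orange points the Id genes. Tcf4, with 36 peaks, lies near the upper edge for its length, Tcf12 (8) and Tcf3 (4) lower, and 3 of the 4 Id genes at 0.

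Id3 was the one Id gene with a peak called in its body. That peak, of 3696 bp with a ratio of 6.24 (chr4:136143862-136147557), covered 97.5% of its 1.57 kb body (chr4:136143822-136145392) and reached beyond it on the downstream side. Its summit lay 0.137 kb past the far end of the gene. The peak began after the start, so the promoter window had 10 of 300 bases in it. Of 1171 genes of similar length, 17.0% overlapped any peak. A small peak of 237 bp with a ratio of 2.90 (chr4:136140678-136140914) lay 3.05 kb before the gene.

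Id1, Id2 and Id4 had no peak in the body. The nearest peak was 50.2 kb from Id1 (chr2:152736251-152737410), 38.05 kb from Id2 (chr12:25093799-25096092) and 246.2 kb from Id4 (chr13:48261116-48266028). Across the protein-coding genes of the table the median distance was 7.98 kb. The distances put Id4 at percentile 85.8 of all genes, Id1 at 68.8 and Id2 at 65.3. A body without a peak was frequent among genes as short as these: 5.83%, 23.3% and 32.1% of genes as long as Id1, Id2 and Id4 overlapped one.

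Id4, which is best known from neural tissue, was the only member with no peak within 100 kb. Over all protein-coding genes, 77.0% had at least 1 peak in the body or within that distance. Counted in this way, Tcf4 had 36 peaks, Id1 had 14, Tcf12 had 12, Id3 had 10, Tcf3 had 9, Id2 had 6 and Id4 had 0. A protein-coding gene of the table had a median of 3. The Id genes thus interleaved with the E proteins once their surroundings were counted.

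Most of the peaks around the Id genes, however, lay at other genes. For each peak the protein-coding gene nearest to its summit was found. Of the 30 peaks within 100 kb of the Id genes, 3 were nearest to the Id gene itself, against 52 of 57 for the E proteins. Of those 52 peaks, 48 overlapped the body, and the E protein genes are longer than the Id genes. Outside the body, 4 of 9 peaks around the E proteins and 2 of 29 around the Id genes were nearest to the member. The share over all protein-coding genes was not computed. Around Id1, 13 of 14 peaks lay in Bcl2l1, which encodes the survival protein Bcl-xL, and the remaining one was in H13. The strongest of the 13 had a ratio of 6.67 and a width of 4325 bp (chr2:152792731-152797055). Id1 itself was nearest to none.

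Around Id2, 5 of 6 peaks lay in Kidins220, with ratios up to 3.23. The sixth was a broad and strong peak of 4452 bp with a ratio of 7.07 (chr12:25187671-25192122), 94.1 kb from the high-coordinate end of Id2, which was its nearest protein-coding gene. Around Id3, 5 of 10 peaks were nearest to E2f2, a cell-cycle factor, and 3 to Rpl11, a ribosomal protein gene. They included the widest peak around any Id gene, 6044 bp with a ratio of 7.28 (chr4:136171281-136177324), whose summit lay 0.211 kb from E2f2. A peak of 4743 bp with a ratio of 6.55 (chr4:136086774-136091516) lay between the genes, with its summit 36.1 kb from Rpl11 and 54.3 kb from Id3. Around Tcf3, 5 of 9 peaks were nearest to Mbd3, Uqcr11 or Mex3d. The strongest of these had a ratio of 5.99 (chr10:80399835-80401561).

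**Figure D3:**
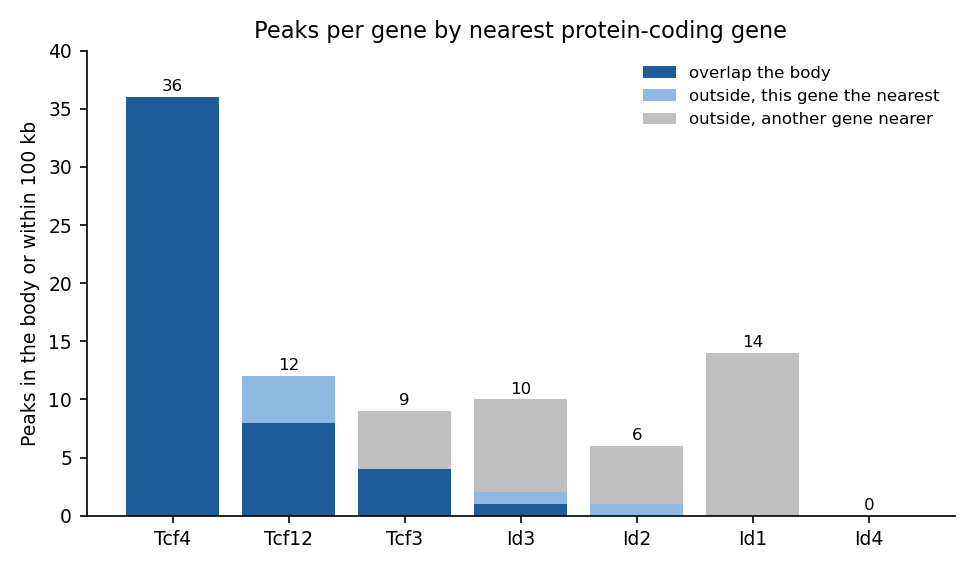
Number of peaks in the body or within 100 kb of each gene (y axis), split into peaks that overlap the body, peaks outside it whose nearest protein-coding gene is the one named, and peaks nearer to another gene. Tcf4 holds 36 of 36 and Tcf12 8 of 12 of its peaks in the body, Tcf3 4 of 9, and the 14 peaks around Id1 are all nearer to another gene.

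The genes differ in the space searched. The windows of the 3 E proteins add up to 1237 kb and those of the 4 Id genes to 809.9 kb. Per 100 kb of gene body there were 16.4 peaks in Tcf3, 10.4 in Tcf4 and 2.99 in Tcf12, while the single peak of Id3, in a body of 1.57 kb, comes to 63.7. Per 100 kb of window the medians were 4.01 peaks for the E proteins and 3.96 for the Id genes, with 1.32 over all protein-coding genes. In the 100 kb flanks alone, which are equally long for every gene, the E proteins had 5 (Tcf3), 4 (Tcf12) and 0 (Tcf4) peaks and the Id genes 14 (Id1), 6 (Id2), 9 (Id3) and 0 (Id4). The median over all genes was 2. The E proteins exceeded the Id genes in peaks within the body and not in their surroundings.

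Pooled over loci, the peaks around the E proteins had a lower median width than those around the Id genes, although single loci interleaved. The median width was 670.0 bp over the 57 peaks of the E proteins (interquartile range 432.0 to 1153 bp) and 1109 bp over the 30 peaks of the Id genes (582.5 to 3257 bp), with 854 bp over the whole list. Among loci, the median was 346.0 bp at Tcf12, 722.0 bp at Tcf4, 817.0 bp at Id2, 840.0 bp at Tcf3, 925.0 bp at Id1 and 2060 bp at Id3. The difference of -438.5 bp between the kinds kept its sign when any gene was left out. It was -255.0 bp without Id3. Peaks wider than 4 kb made up 4 of the 57, all in Tcf4, and 6 of the 30, at Id3 (3), Id1 (2) and Id2 (1). Of the 6, only the one at Id2, 94.1 kb away, was nearest to an Id gene; the others were nearest to Bcl2l1, E2f2 or Rpl11. In the whole list 2.46% of peaks were that wide. Peaks of a locus share their source and are not replicates, so no test was made.

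**Figure D4:**
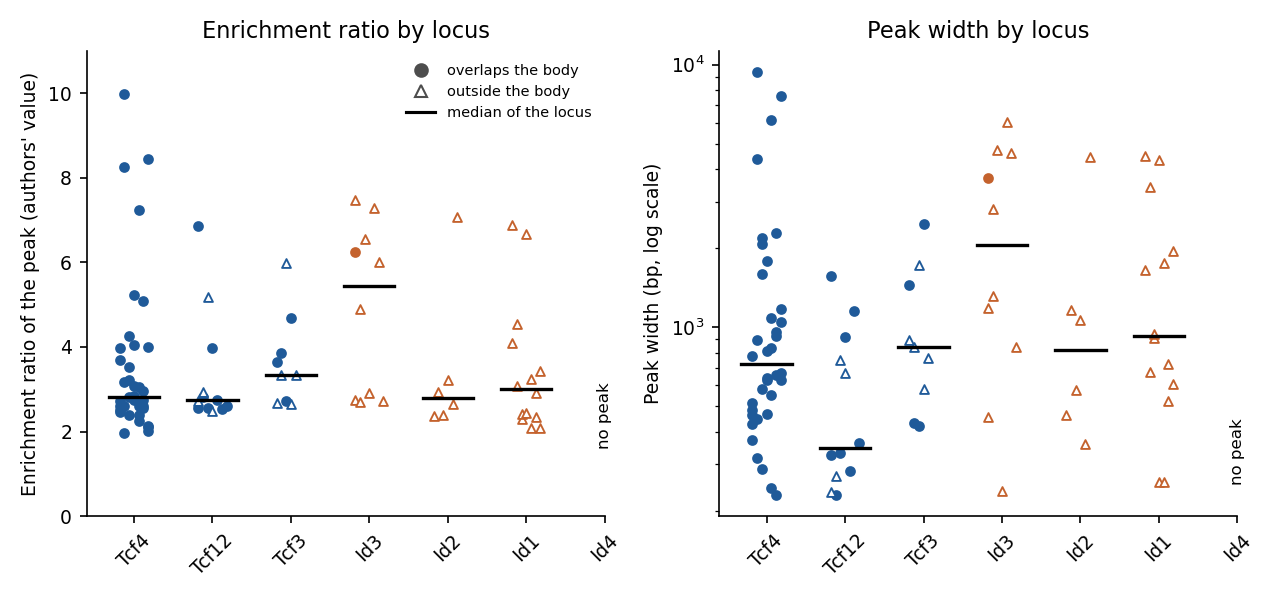
Enrichment ratio (left, y axis, authors' value) and width (right, y axis, bp on a log scale) of each peak in or within 100 kb of the 7 genes (x axis). Filled circles overlap the gene body, open triangles do not, and black lines are medians of a locus. Id3 has the highest median of both, 5.45 and 2060 bp, while Tcf4 has the strongest and the widest single peaks.

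The ranges of the enrichment ratios overlapped between the kinds. The median was 2.81 for the E proteins (interquartile range 2.60 to 3.98) and 3.01 for the Id genes (2.5 to 5.72), both below the median of the whole list. The difference was -0.20. It was 0 with windows of 50 kb, -0.76 in a list held to a −log10 q of 1.3 and -1.42 in one held to 5, and its size therefore depends on the peaks counted. At gene ends it was -2.05 and in the body -3.43, where the Id side is the single peak of Id3. By locus, the medians were 5.45 at Id3, 3.34 at Tcf3, 3.00 at Id1, 2.83 at Tcf4, 2.80 at Id2 and 2.74 at Tcf12. Id3 alone stood apart from the others, and 8 of its 10 peaks were nearest to a neighbour. The highest ratio was 9.98 at Tcf4, 7.47 at Id3, 7.07 at Id2, 6.89 at Id1, 6.86 at Tcf12 and 5.99 at Tcf3.

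Confidence differed too. A q-value above 0.05 was attached to 13 of the 36 Tcf4 peaks, 6 of 14 at Id1, 4 of 12 at Tcf12 and 3 of 6 at Id2, but to 0 at Tcf3 and Id3. In the whole list the share was 21.2%. With −log10 q of at least 5, Tcf4 kept 10 peaks, Id3 kept 6, Id1 kept 4, Tcf3 and Tcf12 kept 3 each and Id2 kept 1. Over the whole list, 36.1% of peaks met that limit. The small peak at the end of Tcf4 did not meet that limit, nor did it have a ratio of at least 4. In either of these stricter lists, 2 of the 3 E protein genes therefore had a peak at an end. Over all protein-coding genes the share was 24.0% in the first list and was not computed for the second. The 9381 bp peak of Tcf4 met both limits, with a ratio of 8.26 and a −log10 q of 25.3. It was not counted at the end because it began just past the 1 kb limit.

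Genes that act with the family were read in lists. Of 6 bHLH partners of E proteins, 1 had a peak at a gene end, Lyl1 with a ratio of 2.72, and 0 did with −log10 q of at least 5. Tal1, which pairs with E proteins in stem and erythroid cells, had none, nor did Tal2, Msc, Nhlh1 and Ascl2. Of 8 cofactors, 5 had one. The highest ratios were at Ep300 (7.62) and Crebbp (4.37), which encode acetyltransferases of this histone mark, and at Kat2b (5.84). Ldb1, Lmo2 and Runx1t1 had none at an end. In the body, Ldb1 had 2 peaks, and Lmo2 and Runx1t1 had 0. The share of all protein-coding genes with a peak at an end is the 36.2% given above.

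The BMP pathway switches on Id genes in many tissues. Of 9 of its genes, 6 had a peak at a gene end, with the highest ratios at Smad5 (5.63), Smad1 (5.62) and the receptor gene Bmpr2 (5.02). The share over all protein-coding genes was 36.2%. When only peaks with −log10 q of at least 5 were used, the count was 3 of 9 and the share over all genes 24.0%. The inhibitory Smad6 and Smad7 and the receptor gene Acvrl1 had none at a gene end. Smad7 had 4 peaks in its body, and Smad6 and Acvrl1 had 0. Of 14 lymphoid targets of E proteins, 11 had a peak at a gene end, led by Foxo1 (12.4), Ebf1 (12.4) and Il7r (11.2). Cdkn1a, Notch1 and Ptcra, the last of them a T-cell gene, had none at an end. In the body, Cdkn1a and Notch1 had 1 each and Ptcra 0. Several of these targets were already known to be acetylated in this list when it was drawn up, so their count is not independent evidence.

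The labelled cell type was read against a list of 7 marker genes. Of these, Cd34, Flt3, Cd48 and Slamf1 are not named in the sort label. Of the 7 genes, 5 had a peak at a gene end: Kit (ratio 5.66), Flt3 (6.58), Ptprc (10.8), Cd48 (2.45) and Slamf1 (3.21). Among all protein-coding genes 36.2% had one. Ly6a, which encodes Sca1, and Cd34 had none. Whether other cells contributed to the peaks at the E protein and Id genes was not tested.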

How the data were processed

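The authors deposited 1 headerless peak list for 4 H3K27ac libraries over 1 input library. The submitters' processing notes name BWA, MACS2 and mm10, without versions; the read depth and filters are not given in the sources used here, so precision cannot be stated. Besides the peak coordinates, the deposited columns used were the enrichment ratio, the −log10 q and the summit offset. The enrichment ratio is column 7, read as such from the usual layout. No value printed here uses the −log10 p. The deposited score was not used in any result.

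Gene ends came from RefSeq (GRCm38.p6, the assembly named mm10) and coordinates are 1-based. As a check, 32.5% of summits lay within 1 kb of a gene end, against 5.36% and 5.55% after moving them by 50 kb. Python 3.11.15 and pandas 2.3.3 were used to count peaks by any overlap. The counting was tested on simulated data. Percentiles among genes count ties by the midpoint and are not p-values. All 7 members, each peak at their ends, their strongest and widest peaks, and the 3 strongest genes of each list were to be named; any other name was picked with its value in view. The members and lists were chosen with earlier results of these data known. A list of markers of mature blood lineages is not reported here. No test was planned, since genes and peaks are not replicates. The alternatives were other windows, stricter lists, joined peaks and leaving out single genes.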

Additional observations from a re-analysis of the deposited data

How the results depend on the processing

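Of 74 recomputed values, 41 stayed within 1.5 times the reported one and 33 moved. The difference in width kept its sign, and that in ratio did so except with windows of 50 kb, where it was 0. The order of the kinds by median number of peaks within 100 kb (12 for the E proteins, 8 for the Id genes) turned over in the flanks alone (4 and 7.5) and at a ratio of at least 4 (2 and 2.5). The count of genes with an end peak kept within that range for both kinds in each of its 5 alternatives. Tcf4 lost its peak there with −log10 q of at least 5 (24.0% of all genes then had one) and with a ratio of at least 4. This left 2 E protein genes. The 9381 bp peak of Tcf4, which began just past the 1 kb limit, met both of these limits. The median number of body peaks of the E proteins fell from 8 to 5 in a list held to a −log10 q of 1.3, 2 at a −log10 q of 5 and 1 at a ratio of 4; it was 0 for the Id genes in each of these. Within 100 kb, the E protein median of 12 became 21 with 200 kb, 3 in the list held to a −log10 q of 5, 2 in that held to a ratio of 4, 4 in the flanks alone and 4.01 per 100 kb. The Id median of 8 became 1.5 with 50 kb, 12.5 with 200 kb, 2.5 in both of those stricter lists, 5 after joining peaks within 1 kb, 1 by nearest gene and 3.96 per 100 kb. The E protein median stayed at 12 by nearest gene.

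The difference in width, -438.5 bp, became -2674 bp at gene ends, -3034 bp in the body, -890.0 bp at a −log10 q of 1.3, -2569 bp at 5, -241.0 bp with 50 kb and -255.0 bp without Id3. The difference in ratio, -0.20, became -2.05, -3.43, -0.76 and -1.42 in the first 4 of these and 0 with 50 kb, and was -0.046 without Tcf12, -0.35 without Id2 and -0.11 without Id3. At gene ends and in the body the Id side is the single peak of Id3. Restricting both kinds to peaks nearest to the member, an alternative chosen after seeing the data, left 52 and 3 peaks and gave -3034 bp and -3.43. At a −log10 q of 5, the bHLH partners had 0 genes with a peak at an end in place of 1 and the BMP pathway 3 in place of 6. The cause of the other moves was not tested. Leaving out single libraries could not be done, because the list has no column of a single library. No paired analysis was possible because no column carries a replicate number. The unknown depth limits what can be said of the weakest peaks.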

Other observations

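A further list held 6 genes of the bHLH leucine zipper class, which bind E boxes but do not pair with E proteins. Of these, 5 had a peak at a gene end, against 36.2% of all protein-coding genes, with the highest ratios at Max (9.34), the partner of Myc, and Usf1 (7.68), a widely expressed activator. The others were Mlx (3.54), Usf2 (3.36) and Tfeb (3.33), and Tfe3 had none. The widest of these peaks, 6466 bp, was at Max.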
